A study of Mus musculus with 32 samples.

Results

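The replication-dependent histone genes were described in BV-2 cells, an immortalised mouse microglial line, across 8 groups of 4 RNA-seq libraries. Members were the genes whose name starts with Hist1h, Hist2h, Hist3h or Hist4h, plus H2afx, with a nonzero value in at least 16 of 32 libraries. That rule kept 66 of the 72 genes with such names, out of 45706 genes in the table. The 6 genes it dropped were nonzero in 0 to 14 libraries (Hist2h3c1, Hist3h2bb-ps, Hist1h2aj, Hist1h1t, Hist1h2aa and Hist3h2ba). By the protein class in their names, 5 members belong to the linker histone H1, 19 to H2A (H2afx counted here), 18 to H2B, 11 to H3 and 13 to H4. The H2A class includes a processed pseudogene (Hist1h2al) and the H2B class a noncoding gene listed as Hist2h2bb.

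Cells of 4 groups had received vehicle (VEH) and cells of the other 4 lipopolysaccharide (LPS) at 10 ng/ml for 24 h. Within each condition, one group had been transfected with a scramble control mimic and the others with a mimic of miR-146a-5p, miR-29a-3p or miR-7a-5p. All groups carried the wild-type genotype of 1 cell line and all had been transfected, so no untransfected cells stand beside them. The labels give the LPS step before the transfection, whereas the methods of the study describe transfection first, and the order cannot be settled here. The labels also call the line a glioblastoma and give an age of mice that cannot apply to a cell line. The study describes replicates of the BV-2 line as independent experiments, and the labels number them alike in every group without saying whether a number marks the same experiment.

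As background, these genes lie in clusters and are transcribed mainly in S phase, when new DNA has to be packaged. H2A, H2B, H3 and H4 form the nucleosome core, and H1 binds the DNA between nucleosomes. Their messages are the metazoan mRNAs that usually end in a conserved stem-loop in place of a poly(A) tail. The stem-loop is bound by SLBP, and the U7 small nuclear ribonucleoprotein guides cleavage behind it. When DNA synthesis stops, the messages are degraded quickly. Libraries were made here from total RNA after depletion of ribosomal RNA, without a poly(A) selection step being named, so messages without a tail could enter them. In bulk RNA, fewer cells in S phase and less histone RNA per cell cannot be told apart.

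The 3 mimics carry different seeds, the bases that pair with target messages. They are shown because every comparison of a mimic with scramble rests on them, with seed bases 2 to 8 in capitals, as RefSeq gives the mature mouse microRNAs.
miR-7a-5p: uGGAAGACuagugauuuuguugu
miR-29a-3p: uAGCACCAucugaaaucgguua
miR-146a-5p: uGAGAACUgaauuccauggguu
The matching 7-base site was found in the longest transcript of 6 members for miR-7a-5p (GTCTTCC), 4 members for miR-29a-3p (TGGTGCT) and 4 members for miR-146a-5p (AGTTCTC). These were 9.09%, 6.06% and 6.06% of the members, against 24.5%, 30.4% and 22.3% of 17174 genes. The members' transcripts were short, with a median of 536.5 bases against 2748 bases, and a shorter transcript has fewer places for a match. A match is a description of the letters and not a functional site.

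The 3′ stem-loop is the feature that sets these messages apart from other mRNAs, so the forms found in the annotated transcripts are shown next, with the stem in capitals and the loop in lower case. The pattern searched, on the transcript strand, was GG, 3 free bases, TTTT, a free base, A, 3 free bases and CC.
24 members (3 H1, 10 H2A, 7 H2B, 4 H3): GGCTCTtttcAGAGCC
7 members (all H4): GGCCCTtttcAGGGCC
5 members (2 H2B, 3 H3): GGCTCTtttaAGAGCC
Hist1h4i and Hist2h4: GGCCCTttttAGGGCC
Hist1h4b and Hist1h4j: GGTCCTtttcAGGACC
H2afx: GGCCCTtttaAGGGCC
Hist2h2ac: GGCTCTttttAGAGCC
The pattern occurred anywhere in any annotated transcript of 42 of 66 members (63.6%), against 355 of 17174 genes (2.07%). It began within the last 120 bases of a transcript in 22 members (33.3%), against 46 genes (0.268%). It ended 23 bases before the end of a transcript in Hist1h2ag, 38 in Hist1h2bp and 46 in Hist1h4h, but 365 in Hist1h3f and 822 in H2afx. A member without a match only lacks these letters in the annotated transcript.

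The members lay in 2 large groups on chromosome 13 and a smaller one on chromosome 3 (GRCm38). The first, at 21715763-22043676 of chromosome 13, held 23 members, and the second, at 23531050-23934156, held 29. On chromosome 3, 96219865-96279001 held 10 members. The single members were Hist4h4 (chromosome 6, 136801553-136804415), H2afx (chromosome 9, 44334694-44336077), Hist3h2a (chromosome 11, 58954685-58956830) and Hist1h2al (chromosome 13, 51202727-51203065), the last annotated as a processed pseudogene. The annotation gave 60 members a single exon. In 300 bases of promoter (57 members matched, RefSeq), TATAAA on either strand was present for 33 (57.9%, against 14.2% of 27025 promoters) and CCAAT for 48 (84.2%, against 37.9%).

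Many members are near-identical copies. Of the 31-base words in a member's transcripts, a median of 55.8% also occurred in another member (other genes were not searched), and the share was 50% or more in 40 of 66 members. It was 100% for Hist2h2aa2, whose sequence lies wholly within that of Hist2h2aa1, 93.4% for Hist1h2ap, 91.2% for Hist1h2ah, 8.86% for H2afx and 0.075% for Hist4h4. Values of single copies are therefore uncertain as to which copy gave the reads. Hist1h1e and Hist1h2be overlap on the same strand, as do Hist2h2bb and a noncoding gene listed under the same name, here called Hist2h2bb-nc.

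Library totals ran from 1.19e+06 estimated counts in VEH miR-7a replicate 4 to 2.06e+07 in LPS scramble replicate 4, so that 3 counts correspond to between 0.135 and 3.81 CPM, counts scaled to a common library total. The decimal marks of the deposited values had been lost and were restored before use. Of 2087 member values above 0, 26 (1.246%) could not be restored with a probability of 0.9, and these lay in 13 members. Small structural RNAs (small nuclear, small nucleolar and related classes) took 2.57% to 17.1% of the counts in 29 libraries but 36.6%, 34.4% and 36.4% in replicates 2, 3 and 4 of VEH miR-7a. Replicate 1 of that group had 6.12%. The high microglial and macrophage markers were present in every library, with Cd68 between 473 and 1741 CPM and Csf1r between 290 and 1007 CPM, whereas Tmem119 did not exceed 7.20 CPM, P2ry12 12.5 CPM and Cx3cr1 6.50 CPM, and Sall1 was nonzero in 6 libraries. Summed markers of astrocytes, neurons, oligodendrocytes, endothelium and T cells reached at most 1.20, 2.18, 17.8, 3.30 and 0.489 CPM.

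Together the 66 members gave 8803 ± 2238 CPM in VEH scramble and 7812 ± 717 CPM in LPS scramble (mean ± SD, n = 4 in these and the following groups). The sum was lowest with the miR-146a mimic, at 3288 ± 431 CPM in VEH and 4010 ± 727 CPM in LPS. With the miR-29a mimic it was 6326 ± 3926 CPM in VEH and 5534 ± 998 CPM in LPS. With the miR-7a mimic it was 20643 ± 9816 CPM in VEH but 6835 ± 943 CPM in LPS. These sums rest on TMM scaling. Scaled to the total of all genes, VEH and LPS stood at 8149 and 8403 CPM with scramble and at 6150 and 6188 CPM with miR-29a, so the order of VEH and LPS turned in both, while miR-146a stayed lowest in each condition (3287 and 4202 CPM). The highest VEH miR-146a library stood at 3753 CPM and the lowest VEH scramble library at 5760 CPM, so these groups did not overlap. The same held in LPS, with a highest miR-146a library of 4969 CPM and a lowest scramble library of 6969 CPM.

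**Figure D1:**
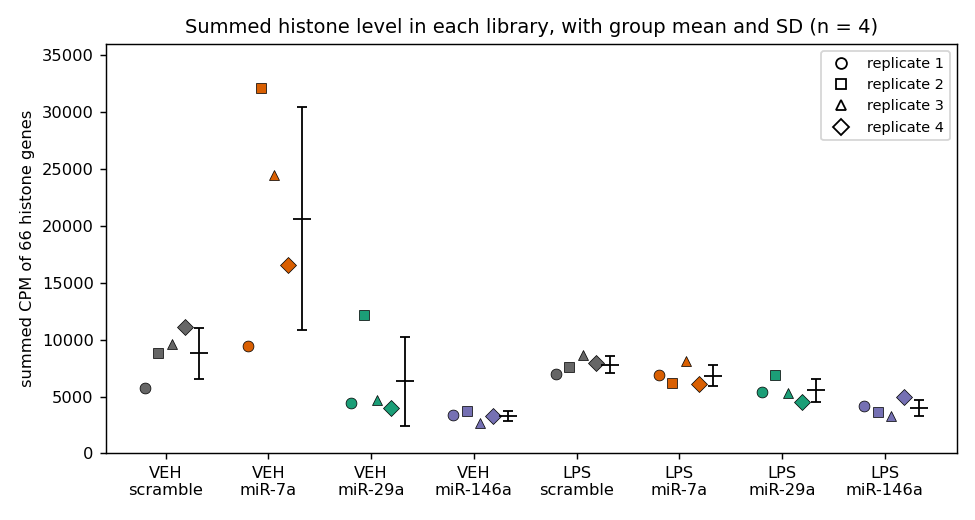
Summed CPM of the 66 histone genes (vertical axis) in each of the 32 libraries by group (horizontal axis), with a symbol for each replicate and the group mean ± SD. The 4 VEH miR-146a libraries sit between 2716 and 3753 CPM, below every VEH scramble library, and the VEH miR-7a libraries spread from 9408 to 32109 CPM.

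H4 held the largest part of the sum in VEH scramble (27%), followed by H2B (21%), H2A (20.3%), H3 (16.8%) and H1 (14.8%). Levels of genes are compared here in VEH scramble as CPM per kilobase of the longest transcript (mean ± SD, n = 4). The H4 genes Hist1h4n with 927 ± 276 and Hist1h4h (chromosome 13, 23531050-23531519) with 859 ± 332 CPM per kilobase stood first, and did not differ beyond their spread. The H2A genes Hist2h2aa1 with 746 ± 208 and Hist1h2ao with 683 ± 130 followed, then the H2B gene Hist1h2bk with 681 ± 206 and the H4 gene Hist1h4f with 552 ± 195 CPM per kilobase, each within the spread of its neighbours. Of the H3 genes, Hist2h3b gave 405 ± 171, Hist2h3c2 234 ± 94.3 and Hist1h3f 127 ± 38.2 CPM per kilobase. The H1 genes Hist1h1c and Hist1h1e gave 284 ± 62.4 and 209 ± 80.0 CPM per kilobase. Hist1h1d, whose longest transcript is far longer, gave 41 ± 8.99 CPM per kilobase, and fell by 1.14 on the log2 scale in VEH miR-146a (limma-voom adjusted p = 0.0208). The H1 gene Hist1h1a was the lowest, with 1.29 ± 0.63 CPM per kilobase. Over all 32 libraries Hist1h4h had the highest mean, 570 CPM, but a median of 209 CPM, since replicates 2 to 4 of VEH miR-7a were far above the rest.

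Across groups, the lowest of the 8 group means was that of VEH miR-146a in 50 of the 66 members and that of LPS miR-146a in 14. The highest was that of VEH miR-7a in 58. In the comparisons that follow, the 3 mimics of a condition share its scramble libraries, and the interactions and LPS contrasts reuse the same libraries, so these results are not independent of each other.

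With the miR-146a mimic under vehicle, histone genes of every class were lower than with scramble. Of 60 members tested, 47 fell, none rose and 59 had a negative log2 fold change (limma-voom, adjusted p below 0.05 and a log2 fold change beyond 0.3). Among all 11749 genes tested, 1.37% were called lower. The median log2 fold change of the tested members was −1.63, against −0.04 for all genes. By class, 13 of 15 tested H2A genes fell (median −1.70), 11 of 17 H2B (−1.73), 9 of 11 H3 (−1.65), 12 of 13 H4 (−1.49) and 2 of 4 H1 (−1.0). In 50 members the groups did not overlap, every mimic library lying below every scramble library, against 7.48% of all genes tested. Small structural RNA took 6.74% to 11.9% of the counts in VEH scramble and 3.81% to 7.24% in VEH miR-146a, and its part in the result was not tested. With totals that leave this RNA out, the summed level was 9048 CPM in VEH scramble and 3465 CPM in VEH miR-146a.

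Hist1h2ag, an H2A gene at 22042460-22042944 of chromosome 13, stood at 25.7, 23.9, 37.3 and 42.0 CPM in VEH scramble replicates 1 to 4 and at 16.3, 6.88, 6.80 and 5.05 CPM in VEH miR-146a. All 4 mimic libraries were lower than any scramble library, with replicate 1 the highest of them, and the log2 fold change was −2.24 ± 0.30 (SE; limma-voom adjusted p = 0.00947). Hist1h2ah, the copy-rich H2A gene at 22035164-22035568 of chromosome 13, gave 5.05, 6.88, 15.2 and 13.8 CPM with scramble and 2.89, 3.54, 1.71 and 1.80 CPM with miR-146a (log2 fold change −2.07 ± 0.47, limma-voom adjusted p = 0.0443). The groups did not overlap, though replicate 1 of scramble was close to the mimic libraries. Hist1h2bf, an H2B gene at 23573736-23574196 of chromosome 13, gave 22.9, 44.6, 70.9 and 89.2 CPM with scramble and 13.2, 6.72, 12.7 and 20.6 CPM with miR-146a (−2.05 ± 0.46, limma-voom adjusted p = 0.0421). Every mimic library lay below every scramble library, with scramble replicate 1 just above mimic replicate 4.

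Hist1h4h gave 226, 596, 350 and 442 CPM with VEH scramble and 98.0, 239, 97.3 and 137 CPM with VEH miR-146a. Replicate 2 of the mimic overlapped replicate 1 of scramble, and the log2 fold change was −1.52 (limma-voom adjusted p = 0.0379). Its neighbour in level, the H4 gene Hist1h4n at 21831767-21832196 of chromosome 13, gave 251, 528, 365 and 451 CPM against 133, 198, 111 and 155 CPM, without overlap (−1.42, limma-voom adjusted p = 0.0220). Of the other abundant members, Hist1h4f fell by 1.56 on the log2 scale, Hist1h2bk by 1.81, Hist1h2ao by 1.70, Hist1h2br by 1.73, Hist1h3f by 1.65 and Hist1h3d by 1.69, with limma-voom adjusted p between 0.00947 and 0.0209.

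Hist1h1c, an abundant H1 gene (chromosome 13, 23738808-23740367), did not pass the test. Its values were 430, 323, 560 and 458 CPM with VEH scramble and 377, 277, 307 and 280 CPM with VEH miR-146a, which overlap (log2 fold change −0.52, limma-voom adjusted p = 0.115). Hist1h2bc, an H2B gene with a long annotated transcript (chromosome 13, 23684199-23692908), gave 227, 258, 405 and 360 CPM against 202, 240, 178 and 184 CPM and did not pass (−0.63, limma-voom adjusted p = 0.0900). With the core histones lower and Hist1h1c closer to its scramble level, H1 made up 21.9% of the members' sum in VEH miR-146a, compared with 14.8% in VEH scramble. Hist1h2bq was the single tested member with a positive value (0.30 ± 0.45, limma-voom adjusted p = 0.707).

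The number of members called in VEH depended on single libraries, while the median hardly moved. It was 26, 31, 0 and 23 without replicates 1, 2, 3 and 4 of VEH miR-146a, and 11 and 13 without replicates 3 and 4 of VEH scramble, with a median between −1.86 and −1.46 whichever library was left out. Correcting every library for GC content and transcript length left 12 calls and a median of −0.84. The members are richer in GC than other genes (median 58.6% against 49.3%) and shorter.

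With the miR-146a mimic under LPS, histone genes of every class were again lower than with scramble. Of 61 members tested, 40 fell, none rose, and all 61 had a negative log2 fold change, with a median of −1.11 against −0.01 for all genes. Among all 12549 genes tested, 1.61% were called lower. The calls held 11 of 12 tested H4 genes (median −1.11), 8 of 10 H3 (−1.20), 11 of 18 H2B (−1.11), 9 of 17 H2A (−1.03) and 1 of 4 H1 (−0.81). In 39 members the groups did not overlap, against 5.48% of all genes tested.

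Hist1h2bp, an H2B gene at 21787461-21789213 of chromosome 13, gave 85.1, 60.6, 95.4 and 71.8 CPM in LPS scramble and 19.2, 23.2, 21.3 and 28.4 CPM in LPS miR-146a (log2 fold change −1.79 ± 0.18, limma-voom adjusted p = 0.00228). Its mimic libraries were within a narrow range and far below scramble. Hist1h2af, an H2A gene at 23533906-23534304, gave 38.4, 58.4, 61.3 and 54.9 CPM against 20.5, 19.8, 13.6 and 19.1 CPM (−1.63 ± 0.18, limma-voom adjusted p = 0.00322). Hist1h2ap, which shares most of its sequence with Hist1h2ao, gave 58.4, 129, 77.6 and 69.7 CPM against 36.7, 19.5, 25.8 and 40.4 CPM (−1.56 ± 0.27, limma-voom adjusted p = 0.0171). Neither gene overlapped between the groups. Hist1h4h gave 176, 298, 273 and 211 CPM with LPS scramble and 129, 128, 90.1 and 104 CPM with LPS miR-146a, again without overlap (−1.09, limma-voom adjusted p = 0.0146).

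Hist1h1c was again close to scramble, at 466, 276, 325 and 360 CPM against 394, 212, 269 and 350 CPM (−0.25, limma-voom adjusted p = 0.583). Hist1h2bc likewise overlapped (391, 254, 407 and 374 CPM against 314, 200, 271 and 293 CPM, limma-voom adjusted p = 0.271). The number of calls was 20 and 15 without replicates 1 and 3 of LPS miR-146a and 26 and 15 without replicates 3 and 4 of LPS scramble, with a median between −1.20 and −0.99 over all libraries left out. A fit on log CPM gave 25 calls, and with the GC and length correction 14 (median −0.82).

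The comparisons under vehicle and under LPS use different libraries, but same-numbered scramble libraries of both conditions deviated together, so they are not separate evidence. Of 58 members tested in both, 35 fell in both, which is 35 of the 47 called in VEH and 35 of the 39 of these members called in LPS. Over all 11536 genes tested in both, 0.459% were called lower in both. Another 12 fell in VEH only by the threshold, 4 in LPS only, and 7 in neither (Hist1h1c, Hist1h2ai, Hist1h2bc, Hist1h2bj, Hist1h2bq, Hist2h2ab and Hist2h2be). The difference between the VEH and LPS effects was tested as an interaction and no member passed (59 tested, 12 at an unadjusted p below 0.05; 0 by limma-voom, edgeR and DESeq2; 0.00% of all genes called). Its median was 0.48, and 56 members had a positive value, a smaller fall under LPS. Without VEH scramble replicate 1, 1 member passed. With the GC and length correction the median was 0.02.

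**Figure D2:**
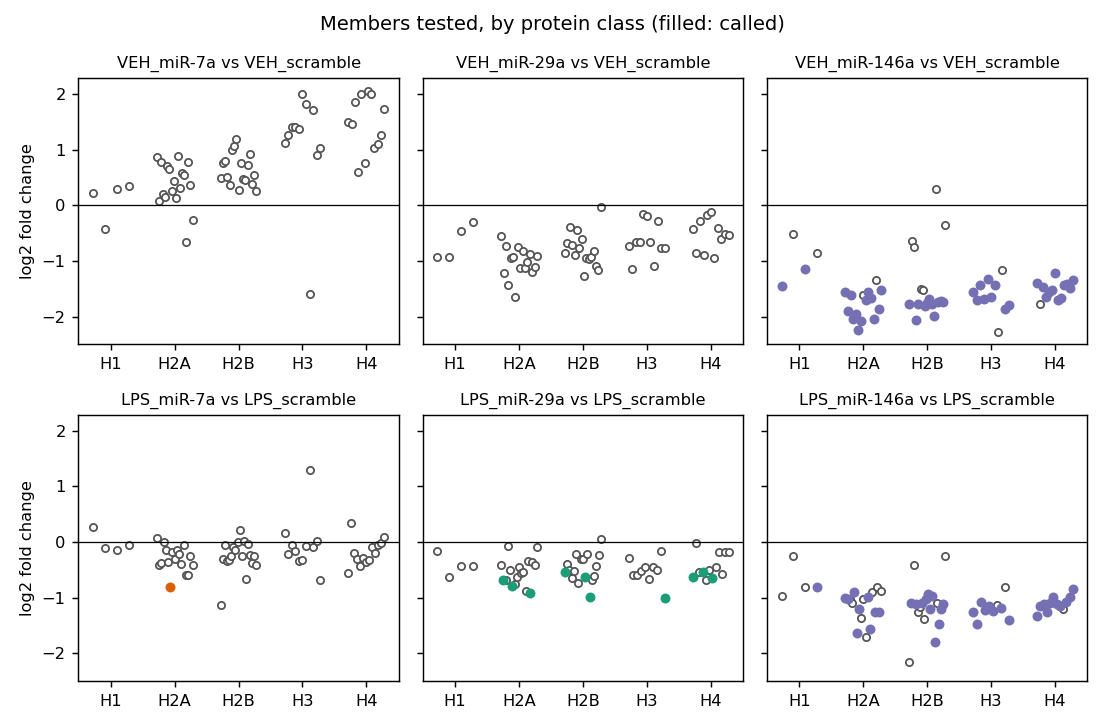
Log2 fold change of each tested histone gene (vertical axis) by class in the 6 comparisons of a mimic with scramble (filled points passed the test, open points did not). Points of both miR-146a comparisons lie below 0 except Hist1h2bq in VEH, with medians of −1.63 in VEH and −1.11 in LPS, while those of VEH miR-7a lie mostly above 0 with none filled.

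The members were also divided by sequence, as a description. With miR-146a, 35 of 41 tested members with a transcript under 1000 bases fell in VEH and 28 of 42 in LPS (medians −1.69 and −1.15). For longer ones it was 12 of 19 in both (−1.51 and −1.02). Members with at least 50% shared 31-base words gave 31 of 37 in VEH and 24 of 36 in LPS (−1.70 and −1.19). Members with fewer gave 16 of 23 and 16 of 25 (−1.47 and −1.01), so the fall was also present where fewer words were shared with other members. Where the stem-loop lay in the last 120 bases, 20 of 22 fell in VEH and 16 of 21 in LPS (−1.70 and −1.21). Without it there, 27 of 38 and 24 of 40 fell (−1.54 and −1.10). By position, 16 of 21 and 14 of 21 fell in the first chromosome 13 group, 20 of 26 and 18 of 27 in the second, and 8 of 10 and 6 of 10 on chromosome 3.

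Among the 10 members on chromosome 3, 8 fell with miR-146a in VEH and 6 in LPS. Hist2h2aa1 (96245497-96246082) gave 261, 470, 478 and 540 CPM in VEH scramble and 138, 168, 118 and 124 CPM in VEH miR-146a (−1.66, limma-voom adjusted p = 0.00947). In LPS it gave 215, 351, 315 and 283 CPM against 197, 126, 116 and 209 CPM and missed the threshold although the groups did not overlap (−0.90, limma-voom adjusted p = 0.0515). Hist2h2aa2 lies wholly in its sequence, so the sum of the copies is the safer value: 391 to 704 CPM in VEH scramble against 146.4 to 204 CPM in VEH miR-146a, and 467 to 537 CPM in LPS scramble against 199.98 to 290 CPM in LPS miR-146a. The sums did not overlap in either condition.

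Hist2h3c2, an H3 gene (chromosome 3, 96238108-96239127), gave 104, 241, 286 and 325 CPM in VEH scramble and 62.8, 65.1, 53.7 and 81.1 CPM in VEH miR-146a (−1.78, limma-voom adjusted p = 0.0223). Hist2h2ac fell by 1.85 in VEH and 1.25 in LPS on the log2 scale, Hist2h2bb by 1.73 and 1.21, and Hist2h4 by 1.49 and 0.99, all past the test. Hist2h3b fell by 1.86 in VEH and had −0.81 in LPS (limma-voom adjusted p = 0.201). Hist2h2ab did not pass in either (−1.35 and −0.80, limma-voom adjusted p = 0.0627 and 0.0941).

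Hist2h2be, an H2B gene on chromosome 3 (96221119-96223738), did not pass with the miR-146a mimic. It gave 18.9, 11.1, 14.6 and 14.9 CPM in VEH scramble and 18.4, 5.11, 15.2 and 16.9 CPM in VEH miR-146a, which overlap (−0.35, limma-voom adjusted p = 0.562, and 0.11 without replicate 2 of VEH miR-146a). In LPS it gave 20.7, 23.9, 22.1 and 25.0 CPM against 22.3, 18.6, 18.7 and 20.1 CPM (−0.25, limma-voom adjusted p = 0.381).

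H2afx encodes H2A.X, the variant phosphorylated at DNA breaks, and its gene yields both a stem-loop and a polyadenylated message. It gave 85.8, 155, 138 and 151 CPM in VEH scramble and 48.0, 37.6, 43.2 and 52.5 CPM in VEH miR-146a, a fall of 1.56 on the log2 scale (limma-voom adjusted p = 0.00947). In LPS it gave 114, 155, 147 and 147 CPM against 70.9, 68.7, 65.9 and 81.9 CPM, a fall of 1.01 (limma-voom adjusted p = 0.00424). The groups did not overlap in either condition, and 8.86% of its 31-base words occur in other members. Hist4h4, with 0.075% of its words in other members, gave 38.6, 72.9, 47.3 and 58.0 CPM in VEH scramble against 19.6, 26.0, 18 and 21 CPM (−1.34, limma-voom adjusted p = 0.0209). In LPS the same gene gave 26.9, 29.1, 34.9 and 22.4 CPM against 17.8, 14.9, 12.6 and 20.7 CPM (−0.84, limma-voom adjusted p = 0.0496). Hist3h2a, an H2A gene with 3.31% of its words in other members, gave 18.5, 23.6, 36.9 and 33.4 CPM in VEH scramble against 8.10, 15.8, 7.69 and 8.19 CPM in VEH miR-146a (−1.52, limma-voom adjusted p = 0.0312), and −0.88 in LPS without passing (limma-voom adjusted p = 0.155).

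**Figure D3:**
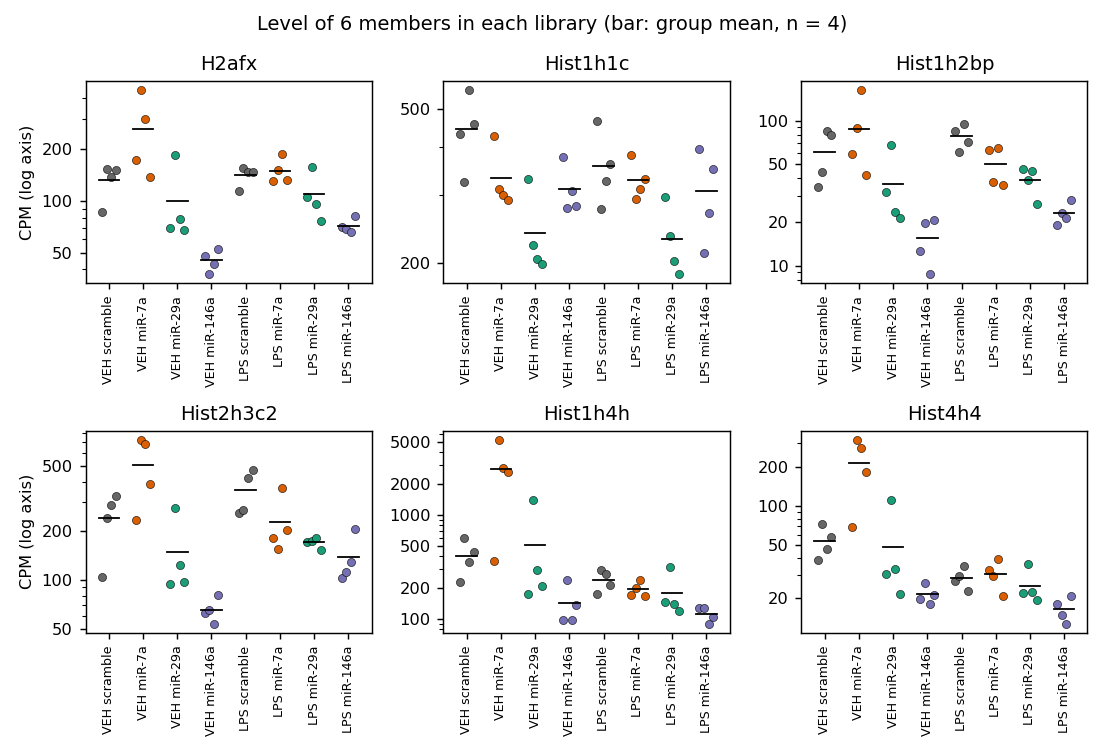
CPM on a log axis (vertical) of H2afx, Hist1h1c, Hist1h2bp, Hist2h3c2, Hist1h4h and Hist4h4 in each library by group (horizontal), with a bar at the group mean. H2afx is lowest in VEH miR-146a (37.6 to 52.5 CPM), Hist1h1c overlaps between all mimics and scramble, and Hist1h4h reaches 5278 CPM in 1 VEH miR-7a library.

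With the miR-29a mimic, some H2A, H2B, H3 and H4 genes were lower than with scramble under LPS and none passed under vehicle. Under LPS, 10 of 60 tested members fell and none rose, 59 had a negative value, and the median was −0.51 against 0.01 for all genes. Among 13187 genes tested, 2.49% were called lower. Of the calls 3 were H2A, 3 H2B, 1 H3 and 3 H4, and the groups did not overlap in 11 members (5.94% of all genes tested). Hist2h3c2 gave 257, 267, 419 and 475 CPM in LPS scramble and 171, 173, 181 and 153 CPM in LPS miR-29a (−1.0 ± 0.19, limma-voom adjusted p = 0.0150). Hist1h2bp gave 85.1, 60.6, 95.4 and 71.8 CPM against 46.1, 39.2, 44.7 and 26.7 CPM (−0.98 ± 0.19, limma-voom adjusted p = 0.0167). Neither gene overlapped between the groups. Hist2h2aa2 gave 252, 136, 222 and 196 CPM against 142, 106, 76.1 and 101 CPM (−0.92 ± 0.21, limma-voom adjusted p = 0.0322), with an overlap of 1 library on each side. Its sum with Hist2h2aa1 was 467, 488, 537 and 479 CPM against 329, 462, 318 and 267 CPM, without overlap.

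Same-numbered libraries of LPS miR-29a and LPS scramble deviated together, and with the replicate as a block 33 members fell and none rose. Without replicates 1, 2, 3 and 4 of LPS miR-29a, 4, 24, 2 and 2 members were called, and without replicates 1, 3 and 4 of LPS scramble 4, 0 and 0. The median stayed between −0.59 and −0.45 in all of these. DESeq2 called 16, and the GC and length correction left 3. Of 12 tested microglial and macrophage markers, 3 were lower as well (2.49% of all genes), Csf1r (−0.70), Tyrobp (−0.57) and Fcgr3 (−0.91). The marker sum did not overlap (2560 to 3282 CPM against 3298 to 4035 CPM in LPS scramble). Their part in the members' result was not tested.

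Under vehicle, no member passed the test with miR-29a (58 tested; limma-voom 0, edgeR 0, DESeq2 7, all lower; 28 at an unadjusted p below 0.05). All 58 had a negative log2 fold change, with a median of −0.79 against −0.01 for all genes, of which 0.00860% were called. In 5 members the groups did not overlap (2.74% of all genes tested). With the replicate number as a block 1 member was called, lower. The group was split: replicate 2 had a summed level of 12200 CPM, above every scramble library, and the other 3 stood far lower, the lowest at 4006 CPM. Hist1h4h showed the same, at 175, 1397, 298 and 207 CPM in replicates 1 to 4, as did H2afx at 69.5, 185, 79.1 and 67.8 CPM. Replicate 2 also had the highest share of small structural RNA in its group, 17.1%, and the part this has in the result was not tested. Without that library the median was −1.10 with 0 members called, and without replicate 1 of VEH scramble 2 were called. The interaction of miR-29a with LPS had no call (56 tested, median 0.25, 5 at an unadjusted p below 0.05; 0 by limma-voom, edgeR and DESeq2; 0.0162% of all genes called).

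With the miR-7a mimic, the median of the members had opposite signs under vehicle and LPS. Under vehicle 58 of 62 tested had a positive value and the median was 0.75 against −0.02 for all genes, but none passed the test without a replicate block (limma-voom 0, edgeR 0, DESeq2 17, all higher; 33 at an unadjusted p below 0.05; 0.0449% of all genes called). The class medians went from H1 (0.26) over H2A (0.41) and H2B (0.54) to H3 (1.37) and H4 (1.49). In 3 members the groups did not overlap (3.23% of all genes tested were higher in this way). With the replicate number as a block 31 members were called, all higher, though not every same-numbered pair of libraries deviated together. H4 held 41.4% of the members' sum and H1 8.14%.

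Hist1h4j, an H4 gene, gave 71.7, 125, 130 and 152 CPM in VEH scramble and 128, 1049, 903 and 481 CPM in VEH miR-7a. Hist4h4 gave 68.8, 319, 279 and 180 CPM in VEH miR-7a. Hist1h4h gave 359, 5278, 2858 and 2569 CPM, of which 1 value could not be restored surely, so it was not tested. In each of these genes replicate 1 lay within the scramble range and replicates 2 to 4 were far above. Those 3 libraries are the ones with 34.4% to 36.6% of counts in small structural RNA. The part of the structural RNA in the result was not tested. Since these libraries also hold the high histone values, leaving them out must lower the median (to 0.16, with 1 mimic library left) and tests nothing. Without replicate 1 in turn, 20 members were called higher. Hist1h1c did not share the pattern, at 427, 310, 299 and 292 CPM (−0.42, limma-voom adjusted p = 0.399).

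**Figure D4:**
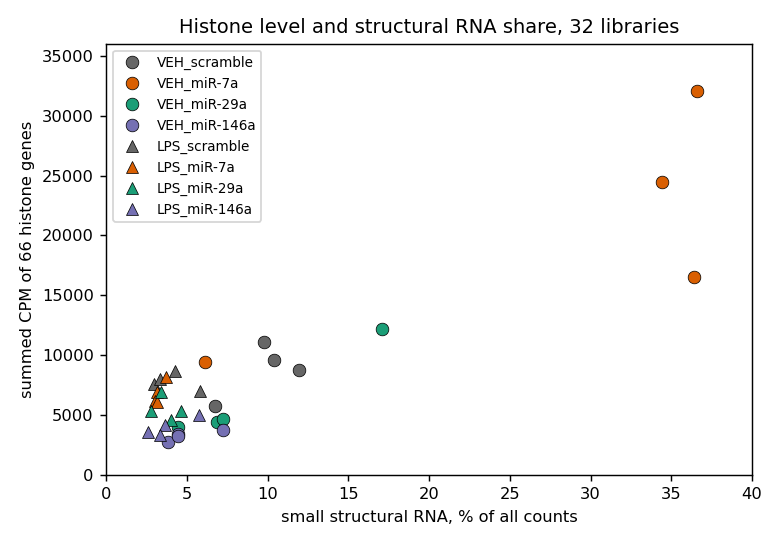
Summed CPM of the 66 histone genes (vertical axis) against the percentage of counts in small structural RNA (horizontal axis) for the 32 libraries, by group. The VEH miR-7a libraries at 34.4% to 36.6% lie apart from the rest and hold the highest sums, and replicate 1 of that group, at 6.12%, has 9408 CPM.

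Under LPS, where all miR-7a libraries had 2.99% to 3.70% of structural RNA, the median was −0.21 against 0.01 for all genes, and 1 of 63 tested members was called lower (1.11% of all genes). In 2 members the mimic lay wholly below scramble (5.65% of all genes). The called member was Hist1h2ag, at 34.5, 24.3, 28.4 and 37.6 CPM in LPS scramble and 19.5, 15.7, 21.7 and 14.1 CPM in LPS miR-7a (−0.81 ± 0.19, limma-voom adjusted p = 0.0492), without overlap. Same-numbered libraries deviated together here, and the block gave 10 calls, 1 higher and 9 lower. DESeq2 called 2. Leaving out any library but LPS scramble replicate 2 (2 called) left no call. H2afx gave 131, 151, 189 and 132 CPM, which overlaps scramble (0.07, limma-voom adjusted p = 0.852, −0.013 without LPS scramble replicate 1 and −0.038 without LPS miR-7a replicate 3).

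Between LPS and VEH within miR-7a, 30 of 61 members were lower in LPS and none higher (median −1.10 against 0.02; 4.07% of all genes called lower; no overlap in 29 members, 6.25% of all genes). The calls held 10 of 12 H4 (median −2.24), 9 of 11 H3 (−1.62), 8 of 17 H2A, 1 of 17 H2B and 2 of 4 H1. Hist1h4k gave 86.7, 682, 515 and 301 CPM in VEH miR-7a and 34.6, 49.9, 42.2 and 41.2 CPM in LPS miR-7a (−2.83 ± 0.50, limma-voom adjusted p = 0.00488). For Hist1h4j the LPS values were 70.7, 75.1, 108 and 73.0 CPM (−2.57 ± 0.52, limma-voom adjusted p = 0.0102). Hist4h4 gave 32.7, 29.3, 39.7 and 20.5 CPM in LPS (−2.54 ± 0.41, limma-voom adjusted p = 0.00296). None overlapped. This comparison uses the same VEH libraries, in which replicates 2 to 4 hold both the high histone values and the high share of structural RNA, whose part was not tested. With replicate 1 as the lone VEH library the median was −0.43, a value that the choice of library fixed in part. The replicate block gave 50 calls, all lower. The interaction of miR-7a with LPS had no call (61 tested, median −0.96, 59 negative, 34 at an unadjusted p below 0.05; limma-voom 0, edgeR 0, DESeq2 9; 0.00820% of all genes called), with 10 called lower under the replicate block, 17 called when replicate 1 of VEH miR-7a was left out.

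When LPS was compared with vehicle in scramble cells, few members passed the test without a replicate block. Of 63 tested, 1 rose and 3 fell, where 9.53% and 8.35% of 12264 genes were called higher and lower. The median was −0.22 against 0.01 for all genes, from −0.39 in H4 to 0.21 in H2B. In 3 members LPS lay wholly below VEH and in 1 above (10.1% and 12.9% of all genes). The count was 14 with the replicate block (3 higher and 11 lower; same-numbered libraries deviated together) and 19 without VEH scramble replicate 1. With 1 other library left out it was 2 (LPS scramble replicates 1 and 3, VEH scramble replicates 3 and 4) or 1 (LPS scramble replicate 4). DESeq2 called 8. With the GC and length correction the direction of the calls turned, 14 higher and 2 lower with a median of 0.27, so no direction is given for the members as a whole.

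Hist2h2be was the member that rose, from 18.9, 11.1, 14.6 and 14.9 CPM to 20.7, 23.9, 22.1 and 25.0 CPM (0.61 ± 0.18, limma-voom adjusted p = 0.0331), without overlap. Hist1h4b, an H4 gene, fell from 35.6, 72.5, 49.5 and 76.3 CPM to 17.4, 33.3, 28.3 and 13.7 CPM (−1.35 ± 0.32, limma-voom adjusted p = 0.0137). Hist1h2ad, an H2A gene, fell from 31.8, 35.6, 65.7 and 54.8 CPM to 18, 18.7, 8.97 and 35.9 CPM (−1.30 ± 0.38, limma-voom adjusted p = 0.0347), with LPS replicate 4 inside the vehicle range. Hist4h4 fell by 0.92 ± 0.22 (limma-voom adjusted p = 0.0133) without overlap. H2afx overlapped (0.10, limma-voom adjusted p = 0.769, and −0.12 without VEH scramble replicate 1).

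The same contrast within miR-29a and within miR-146a gave few calls, all higher in LPS. With miR-29a, 4 of 57 members rose (13.2% of all genes called higher), with a median of 0.10. In 3 members LPS lay wholly above VEH (16% of all genes). The called members were Hist2h2bb (66.9, 81.4, 48.5 and 44.6 CPM in VEH and 160, 97.0, 138 and 115 CPM in LPS; 1.12 ± 0.21, limma-voom adjusted p = 0.00227), the overlapping Hist2h2bb-nc (1.27), Hist3h2a (0.87) and Hist2h2be (0.68). With the replicate block 11 were called, 7 higher and 4 lower, and without VEH miR-29a replicate 2, 14. The GC and length correction gave 16, all higher.

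With miR-146a, 6 of 58 members rose from VEH to LPS (2.90% of all genes called higher), with a median of 0.22 against −0.02, and in 8 members LPS lay wholly above VEH (6.70% of all genes). Hist2h2aa2 gave 63.7, 36.1, 28.1 and 30.5 CPM in VEH and 67.9, 97.0, 84.0 and 80.6 CPM in LPS (1.25 ± 0.19, limma-voom adjusted p = 0.00202). Its sum with Hist2h2aa1, the safer value, overlapped, at 202, 204, 146.4 and 154 CPM in VEH and 265, 223, 199.98 and 290 CPM in LPS. Hist2h3c2 rose by 0.98 ± 0.21 to 103, 112, 129 and 206 CPM, and H2afx by 0.65 ± 0.15, both without overlap. Hist1h2bb (0.89), Hist1h3f (0.76) and Hist1h2bk (0.58) were the others. The count was 3 without LPS miR-146a replicate 4, 4 without LPS miR-146a replicate 1 and 1 without VEH miR-146a replicate 3.

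Gene lists of the pathways around histone supply were set beside the members. Of the 32 genes of DNA replication and S phase, 19 rose in LPS against VEH scramble and none fell (median 0.74). There 9.53% of all genes were called higher, and the members' median was −0.22, or 0.27 with the GC and length correction. In VEH miR-146a against scramble 4 fell, where 1.37% of all genes were called lower, and 21 had an unadjusted p below 0.05 (median −0.66). The 4 were the helicase subunits Mcm6 (−0.89) and Mcm5 (−0.97), the cyclin Ccna2 (−0.71) and the thymidine kinase Tk1 (−0.90). In LPS miR-146a against scramble 21 fell and none rose, where 1.61% of all genes were called lower. The median of the list was −0.95, beside −1.11 for the members, with Mcm6 at −1.27 ± 0.14 (limma-voom adjusted p = 0.00322). With the GC and length correction the members' median falls with miR-146a were smaller in both conditions, as given above. The lists were tested without that correction, so the sizes of the falls cannot be compared under it. With VEH miR-29a none passed in limma-voom, with 5 at an unadjusted p below 0.05 (median −0.14, beside −0.79 for the members). In LPS miR-29a 2 S phase genes rose, where 2.12% of all genes were called higher, and none fell (median 0.06, beside −0.51 for the members). With VEH miR-7a none passed in limma-voom, with 5 at an unadjusted p below 0.05 (median 0.45).

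The 17 mitosis genes rose together in LPS against VEH scramble (17 of 17, against 9.53% of all genes, median 1.5), for example Top2a (1.98), Ccnb1 (1.58) and Plk1 (1.5). With miR-146a 5 fell in VEH (median −0.38) and 10 in LPS (−0.72), against 1.37% and 1.61% of all genes. Of the genes that make and process histone mRNA, 17 of 20 were tested, and Rnu7, the U7 RNA, was listed at 0 in every library. In LPS against VEH scramble 4 rose, against 9.53% of all genes. Among them were Npat (0.74), the activator of histone transcription, and Zfp473 (1.55), a U7 complex protein. In VEH miR-146a the uridylyltransferases Zcchc6 (0.86) and Zcchc11 (0.72) rose, where 1.01% of all genes were called higher, and in LPS miR-146a none passed in limma-voom (8 at an unadjusted p below 0.05), with Slbp at −0.35 (limma-voom adjusted p = 0.266).

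Of 17 histone chaperones, 3 fell in LPS miR-146a (median −0.36), where 1.61% of all genes were called lower. These were Chaf1a (−0.98), Asf1b (−0.99) and Nasp (−0.55), which deliver new histones to chromatin. In VEH miR-146a 1 passed, Atrx, which rose by 0.84, where 1.01% of all genes were called higher. The replication-independent variant and linker histones, such as H2afz and H3f3a, have polyadenylated messages. Of 8 tested none passed with miR-146a in either condition (limma-voom; 3 in VEH and 1 in LPS at an unadjusted p below 0.05; medians −0.26 and −0.02). None of the 8 cell cycle brake and p53 target genes passed with miR-146a in limma-voom (1 in VEH and 3 in LPS at an unadjusted p below 0.05). None of the microglial markers passed with miR-146a (11 tested in VEH and 12 in LPS, 2 in each at an unadjusted p below 0.05). Their summed level was 4374 to 6217 CPM in VEH scramble, 4483 to 5814 CPM in VEH miR-146a, 3298 to 4035 CPM in LPS scramble and 3847 to 4586 CPM in LPS miR-146a. In LPS against VEH scramble 6 of 12 tested markers fell and 1 rose (8.35% and 9.53% of all genes), and the sums did not overlap. The part that the share of cells in S phase has in the members' levels was not tested.

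**Figure D5:**
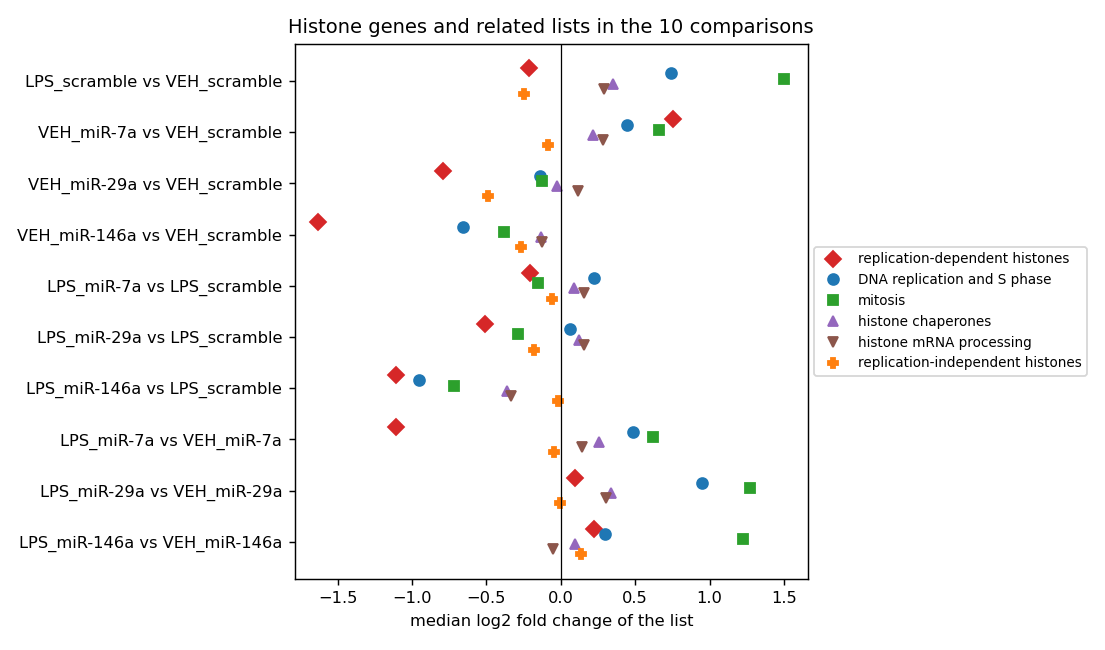
Median log2 fold change (horizontal axis) of the tested histone genes and of 5 related gene lists in the 10 comparisons (vertical axis). The histone median is lowest in VEH miR-146a against scramble (−1.63), where S phase genes stand at −0.66, and in LPS against VEH scramble it is −0.22 (0.27 with the GC and length correction, not drawn) beside 0.74 for S phase genes. The corrected miR-146a histone medians, smaller falls that the text gives, are not drawn either, and the lists were not corrected.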

How the data were processed

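Total RNA of BV-2 cells was depleted of ribosomal RNA and sequenced in 32 libraries. The deposited table holds estimated counts per gene, made by the authors with the nf-core rnaseq workflow on GRCm38. The quantifier and annotation release are not given in the sources used here. The submitters' processing notes name limma and edgeR. The deposited estimated counts had lost their decimal marks, so each value was restored to the most probable of its possible readings from the other libraries of that gene and the other members of its class, and a gene with a value under a probability of 0.9 in the libraries compared was left out. The restoration was revised once after first results, judged on the spread of values against counting error and not on calls, and no member value changed. All table columns matched a sample and no 2 libraries were identical.

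Groups were compared pairwise (4 against 4 libraries) in R 4.3.3 with limma 3.58.1 (voom), TMM factors and the expression filter of edgeR 4.0.16. P-values were adjusted by Benjamini-Hochberg over all genes tested. A gene was called at an adjusted p below 0.05 and a log2 fold change beyond 0.3. Interactions used the 16 libraries of 4 groups and the adjusted p alone. CPM were computed on TMM-scaled totals. The library totals set the counting precision. Genes named were the 3 of highest mean CPM over all libraries in each class, up to 3 called members with the largest rise and fall per comparison, H2afx and members outside Hist1. Others were named for their position, sequence or spread, after their values were seen. The members and lists were chosen with earlier results of these data known. All main tests were run without a replicate block, and the block was an alternative. Numbered replicates were regarded as pairs where every same-numbered pair of a comparison correlated above 0.1 in its deviations from the group means. This held for LPS against VEH scramble (0.137 to 0.240), LPS miR-7a against LPS scramble (0.230 to 0.422), LPS miR-29a against LPS scramble (0.238 to 0.430) and LPS against VEH with miR-29a (0.172 to 0.247). Elsewhere the blocked counts are printed where they moved by over 1.5 times. Alternatives were edgeR, DESeq2 1.42.0, limma-trend, a GC and length correction, other scalings, filters and restorations, a replicate block, and leaving out each library. The scripts were tested on simulated data.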

Additional observations from a re-analysis of the deposited data

Results flagged for a closer look

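Samples far from the other 3 of their group were looked for with Dixon's gap rule, which by chance marks about 1 group in 20. Over all members and groups it marked 48 of 528, of which 25 were VEH miR-29a replicate 2. Causes were not tested. Values of the class sums and of a selection of genes follow, those whose values the report gives library by library.

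VEH miR-29a replicate 2 stood above its group in the sum of all members (12200 CPM) and in the sums of H2A (1798 CPM), H2B (1961 CPM) and H4 (5031 CPM). Single genes were H2afx (185 CPM), Hist1h2ag (43.8 CPM), Hist2h2aa1 (452 CPM), Hist2h2aa2 (223 CPM), Hist1h2bc (311 CPM), Hist1h2bf (51.4 CPM), Hist2h3c2 (277 CPM), Hist1h4b (96.7 CPM), Hist1h4h (1397 CPM), Hist1h4j (274 CPM), Hist1h4n (675 CPM) and Hist4h4 (111 CPM). These values share 1 library and are not separate pieces of evidence.

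Other libraries stood apart in fewer members. Among them, LPS miR-29a replicate 2 was high in 4 H4 genes, Hist1h4h (314 CPM), Hist1h4j (117 CPM), Hist1h4k (70.0 CPM) and Hist4h4 (36.3 CPM). The H3 sum was high in LPS miR-7a replicate 3 (1723 CPM) and in LPS miR-146a replicate 4 (976 CPM). Hist1h4j was also high in LPS miR-7a replicate 3 (108 CPM), and Hist1h2ah was low in LPS miR-7a replicate 4 (2.38 CPM). Hist1h1c was high in VEH miR-7a replicate 1 (427 CPM), the library of that group with little structural RNA. In VEH miR-146a, Hist1h2ag was high in replicate 1 (16.3 CPM) and Hist3h2a in replicate 2 (15.8 CPM).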

How the results depend on the processing

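Of the 13 counts of called members, that of the miR-29a interaction was 0 under every alternative run, and the others changed. With the values as deposited, lost decimal marks included, all counts were 0. With DESeq2 they were 8 (LPS against VEH, scramble), 17 (VEH miR-7a against scramble), 7 (VEH miR-29a), 2 (LPS miR-7a), 16 (LPS miR-29a), 10 (LPS against VEH, miR-146a) and 9 (miR-7a interaction). In the paired comparisons the replicate block gave 14 (LPS against VEH, scramble), 10 (LPS miR-7a), 33 (LPS miR-29a) and 11 (LPS against VEH, miR-29a). In the others, where the check did not show that every number pairs its samples, the block gave 31 (VEH miR-7a), 1 (VEH miR-29a), 51 (VEH miR-146a), 52 (LPS miR-146a), 50 (LPS against VEH, miR-7a), 9 (LPS against VEH, miR-146a) and 10, 0 and 0 for the interactions (miR-7a first, miR-146a last). The GC and length correction gave 16 (LPS against VEH, scramble), 4 (VEH miR-7a), 12 (VEH miR-146a), 0 (LPS miR-7a), 3 (LPS miR-29a), 14 (LPS miR-146a), 19 (LPS against VEH, miR-7a) and 16 (LPS against VEH, miR-29a). With that correction and the replicate block the counts were 25 (LPS against VEH, scramble), 29 (VEH miR-7a), 6 (VEH miR-29a), 31 (VEH miR-146a), 14 (LPS miR-7a), 30 (LPS miR-29a), 35 (LPS against VEH, miR-29a), 12 (LPS against VEH, miR-146a) and 12 (miR-7a interaction). Limma-trend gave 25 for LPS miR-146a. No filter on low counts gave 0 for LPS miR-7a, as did the most probable values with uncertain genes kept. A minimum posterior of 0.99 gave 2 for LPS against VEH with miR-29a. Without the 3 VEH miR-7a libraries rich in structural RNA, 0 were called in LPS against VEH with miR-7a, which leaves 1 VEH library and was fixed by the choice of libraries. Keeping uncertain genes, leaving out these 3 libraries and a restoration without the class term were alternatives chosen after seeing the data.

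Leaving out 1 library at a time gave 1 to 19 calls (LPS against VEH, scramble), 0 to 20 (VEH miR-7a), 0 to 2 (VEH miR-29a), 0 to 56 (VEH miR-146a), 0 to 2 (LPS miR-7a), 0 to 24 (LPS miR-29a), 15 to 41 (LPS miR-146a), 21 to 38 (LPS against VEH, miR-7a), 3 to 14 (LPS against VEH, miR-29a), 1 to 7 (LPS against VEH, miR-146a), 0 to 17 (miR-7a interaction), 0 to 0 (miR-29a interaction) and 0 to 1 (miR-146a interaction). For single named genes, leaving out a library kept direction and call in 440 cases, lost the call in 170, gained it in 10 and turned the direction in 4. These were Hist2h2be in VEH miR-146a (range −0.54 to 0.11), H2afx in LPS against VEH scramble (−0.12 to 0.20) and, with 2 libraries, H2afx in LPS miR-7a (−0.038 to 0.13, and −0.013). The other alternatives gave 765, 123, 24 and 7. The 7 turned with the values as deposited: Hist4h4 in LPS against VEH scramble (3.20), Hist1h1e in VEH miR-146a (0.022), Hist1h1c (0.72), Hist2h2bb (0.024) and Hist2h3b (0.39) in LPS miR-146a, H2afx in LPS miR-7a (−0.72) and Hist1h4n in VEH miR-7a (−0.66). Apart from these, the cause was not tested. Of 48 class sums, those moved by over 1 SD were 4 with uncertain members left out, 3 with the total of all genes and 9 with a total without small structural RNA. Low totals limit the lowest members, such as Hist1h1a.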
